A study of Mus musculus with 12 samples.

Results

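The 10 genes described here are 5 stefins (Stfa1, Stfa2, Stfa2l1, Stfa3 and Cstb) and 5 lysosomal cathepsins (Ctsb, Ctsd, Ctsl, Ctss and Ctsz), found by their exact gene symbols among the 21314 genes of an Affymetrix data set from mouse colon. All 10 were measured, each by 1 probe set. They were chosen with array results of these mice in view, and the values that chose them are the group differences given below, so those differences stand as a description without a test. The study compared wild-type mice with mice lacking Parp1 (Parp1-/-), a nuclear enzyme that senses DNA breaks and builds poly(ADP-ribose) there, with and without chemical injury of the gut. Mice of 6 to 8 weeks drank for 7 days either plain water or 4% DSS (dextran sulfate sodium, a detergent-like sugar polymer used to provoke colitis), and RNA was taken from the whole washed colon. There were 4 groups of 3 mice with 1 array each: wild-type water, wild-type DSS, Parp1-/- water and Parp1-/- DSS. For the strain and the making of the Parp1 allele, the sources used here state nothing. A value is a log2 value set to a median of 0 over the 12 arrays for each probe set, so a gene can be followed across arrays but the levels of different genes cannot be compared.

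Stefins are small inhibitors in the cytosol that plug the active site of cysteine proteases of the papain family, tightly but reversibly. Cathepsins B, L, S and Z belong to that family, while cathepsin D is an aspartic protease that stefins do not block. In mice the stefin A genes multiplied by duplication into a tandem cluster, and they are known from bone marrow, neutrophils and inflamed skin. Cathepsins digest proteins in the lysosome of nearly every cell. Macrophages of the inflamed bowel are known as a rich source of them.

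The arrays themselves differed before any question about these genes. The 3 arrays labelled wild-type water and the array labelled wild-type DSS 1 stood apart: 15 housekeeping genes, needed by almost every cell type, had a mean that lay between -1.71 and -0.87 in these 4 and between 0.005 and 0.37 in the other 8. The SD over all probe sets was 0.666 to 0.871 in the 4 and 0.256 to 0.394 in the 8. The mean of 10 smooth muscle markers was 3.01 to 3.08 in Parp1-/- water 2 and 3 and Parp1-/- DSS 1, and at most 0.07 elsewhere. Parp1 was lower in the array labelled wild-type water 1 (-0.41) than in any Parp1-/- array (-0.22 to 0.03), which goes against that label on the deposited scale, and wild-type DSS 1, at 0.01, lay within the Parp1-/- range. Relative to each array's housekeeping mean, Parp1 was at 1.30 in the former array and 0.88 for the latter, and all 6 wild-type arrays (0.40 to 2.05) lay above the 6 Parp1-/- arrays (-0.36 to 0.02). Colonocyte markers (12 of 12 measured) averaged -1.41 to -0.91 in the 4 arrays that stood apart, whereas the 8 had -0.08 to 0.42. On centred values the absence of a marker cannot be read. Every wild-type water array is among the 4, so this shift enters any comparison with that group, and its part in the results was not tested. Differences are log2 values from 1 limma model of the 4 groups, each with its model standard error, and a gene is called where its limma p, adjusted over all 21314 genes, is under 0.05. By that rule 8.89% of all genes rose and 4.16% fell under DSS in wild type, 0.00938% changed under DSS in Parp1-/-, and in water 17.9% were higher and 13.7% lower in Parp1-/-. With the housekeeping mean of every array set to 0, 2.31% rose and 69.2% fell under DSS in wild type, and 2.74% were higher and 73.7% lower in water, so counts of lower genes on that scale are read against these shares. In bulk colon, fewer cells of a type and less RNA per cell cannot be told apart.

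The 4 Stfa genes lie in a cluster on chromosome 16, where near copies stood before genes that differed in range over the arrays. The range was 3.02 for Stfa2l1 and 0.59 for Stfa2, though their values correlated at a Pearson r of 0.67. For this reason the 250 bases before the RefSeq starts of all 4 (build GRCm38.p6) are shown. They run 5′ to 3′ on the strand of the gene, with GAGGAA or its reverse complement TTCCTC, a purine-rich core of ETS factor sites, in capitals.
Stfa2l1, chr16:36156561-36156810, plus strand: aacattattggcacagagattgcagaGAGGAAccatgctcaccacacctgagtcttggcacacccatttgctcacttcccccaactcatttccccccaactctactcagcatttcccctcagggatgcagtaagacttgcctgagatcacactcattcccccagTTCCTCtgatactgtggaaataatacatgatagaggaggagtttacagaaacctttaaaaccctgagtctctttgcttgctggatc
Stfa2, chr16:36408364-36408613, minus strand: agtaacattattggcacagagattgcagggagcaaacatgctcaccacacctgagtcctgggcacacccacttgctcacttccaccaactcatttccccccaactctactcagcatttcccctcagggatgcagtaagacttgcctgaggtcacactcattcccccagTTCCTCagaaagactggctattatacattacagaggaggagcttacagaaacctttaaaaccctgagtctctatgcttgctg
Stfa1, chr16:36276898-36277147, plus strand: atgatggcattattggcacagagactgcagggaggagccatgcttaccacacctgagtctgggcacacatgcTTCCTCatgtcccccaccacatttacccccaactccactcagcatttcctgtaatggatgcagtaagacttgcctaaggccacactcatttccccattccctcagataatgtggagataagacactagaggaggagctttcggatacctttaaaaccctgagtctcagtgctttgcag
Stfa3, chr16:36455393-36455642, minus strand: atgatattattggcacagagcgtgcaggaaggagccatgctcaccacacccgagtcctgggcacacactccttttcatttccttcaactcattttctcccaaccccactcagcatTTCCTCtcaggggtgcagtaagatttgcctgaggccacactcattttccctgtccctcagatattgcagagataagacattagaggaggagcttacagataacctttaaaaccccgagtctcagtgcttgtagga
The windows of Stfa2l1 and Stfa2 had 227 identical bases in 246 aligned, an identity of 89.4% with gapped positions counted. Stfa1 and Stfa3 shared 83.5%, and the remaining pairs 80.4% to 81.0%. GAGGAA on either strand was in 4 of 4 of these windows, against 23.3% of the 32851 windows of the same length in the RefSeq table and 5 of 9 windows of other genes of the cluster list. It lay 224 and 86 bases before the start of Stfa2l1, 82 before Stfa2, 178 before Stfa1 and 135 before Stfa3. The 9 other windows count Cstdc3 once for each of its starts and include Cstdc1 and Cstdc2 on chromosome 2. Since the 4 Stfa windows are near copies, their matches are not independent. TATAAA, the TATA box letters, was in none of the 4 and in 12.4% of all windows, and TGANTCA, the AP-1 core on both strands, in none and in 6.7%. A match is a description of letters, not of a bound site.

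Stfa2l1 (stefin A2 like 1), an inhibitor of the cathepsin B and L family, had the highest values of the 4 groups in wild-type DSS. Wild-type mice 1 to 3 had 0.21, 0.01 and -0.01 on plain water and 1.26, 1.91 and 0.71 on DSS. In Parp1-/- its values were -0.61, -1.01 and -0.87 on plain water and -1.11, 0.66 and -0.74 on DSS, again in the order of arrays 1 to 3, which is kept for all genes. All 3 wild-type DSS arrays lay above the other 9, the nearest being Parp1-/- DSS 2, while the other two Parp1-/- DSS arrays lay among or below the Parp1-/- water arrays. The group means ran from 1.29 ± 0.60 (SD, n = 3) in wild-type DSS over 0.07 ± 0.12 in wild-type water and -0.39 ± 0.93 in Parp1-/- DSS to -0.83 ± 0.20 in Parp1-/- water. Of neighbours in that order, Parp1-/- DSS overlapped with the group on either side. DSS minus water was 1.22 ± 0.41 in wild type, or 2.33-fold, and 0.44 ± 0.41 in Parp1-/-. Relative to each array's housekeeping mean the wild-type groups overlapped, at 1.92, 0.91 and 1.11 in water and 2.13, 1.88 and 0.34 in DSS, and with that mean set to 0 the difference was 0.13 ± 0.49. Parp1-/- minus wild type was -0.90 ± 0.41 in water and -1.68 ± 0.41 in DSS, the latter -1.70 ± 0.55 when only the 8 arrays that did not stand apart were fitted. The response in Parp1-/- was -0.09 without Parp1-/- DSS 2, so its sign rests on that array. Without wild-type DSS 1 the wild-type difference was 1.24 ± 0.47. It was called without Parp1-/- DSS 2, at 1.22 ± 0.28.

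Neutrophil markers were set beside Stfa2l1, since stefin A genes are known from these cells. The mean of 15 such genes, all measured, was -0.34 to -0.21 in wild-type water, 0.37 to 1.19 in wild-type DSS, -0.65 to -0.27 in Parp1-/- water and 0.07 to 0.84 in Parp1-/- DSS. Of the 15, 13 were above 0 in each wild-type DSS array, and 5, 14 and 7 in Parp1-/- DSS 1 to 3. Retnlg, a resistin-like protein secreted by neutrophils, was highest at 2.85 in wild-type DSS 2, and within Parp1-/- DSS at 2.20 in array 2 against -0.03 and 0.01 in arrays 1 and 3. Cxcr2, the chemokine receptor that calls neutrophils into tissue, was at 3.06 in wild-type DSS 2 and at 1.91 in Parp1-/- DSS 2. The arrays highest in Stfa2l1 within each DSS group were thus the highest in Retnlg, Cxcr2 and the mean of the 15. Not every marker followed: Ly6g, a neutrophil surface protein, was at 0.74 and Ltf at 0.04 in Parp1-/- DSS 2, the lowest of that group. In wild-type DSS both were highest in array 3. In wild type 5 of the 15 markers rose under DSS by limma, with a median of 1.02, where 8.89% of all genes rose. With the housekeeping mean of every array set to 0 there were 1 rise and 3 falls and the median was -0.07. On that scale 2.31% of all genes rose and 69.2% fell. The markers that rose on the deposited scale included Ly6g (3.17 ± 0.86, limma adjusted p = 0.0345) and Cxcr2 (2.11 ± 0.52, limma adjusted p = 0.0226). None passed in Parp1-/-, where 0.00938% of all genes did and Ly6g differed by 4.11 ± 0.86 (limma adjusted p = 0.374). Without the array labelled wild-type water 1 there were 2 rises in wild type, where 6.25% of all genes rose. After quantile normalization there were 0 in wild type and 2 in Parp1-/-, where the median was then 1.27, so the counts give no order of the genotypes. Of all genes 1.02% then rose in wild type and 0.333% in Parp1-/-. The part of neutrophil number in the Stfa2l1 values was not tested.

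**Figure D1:**
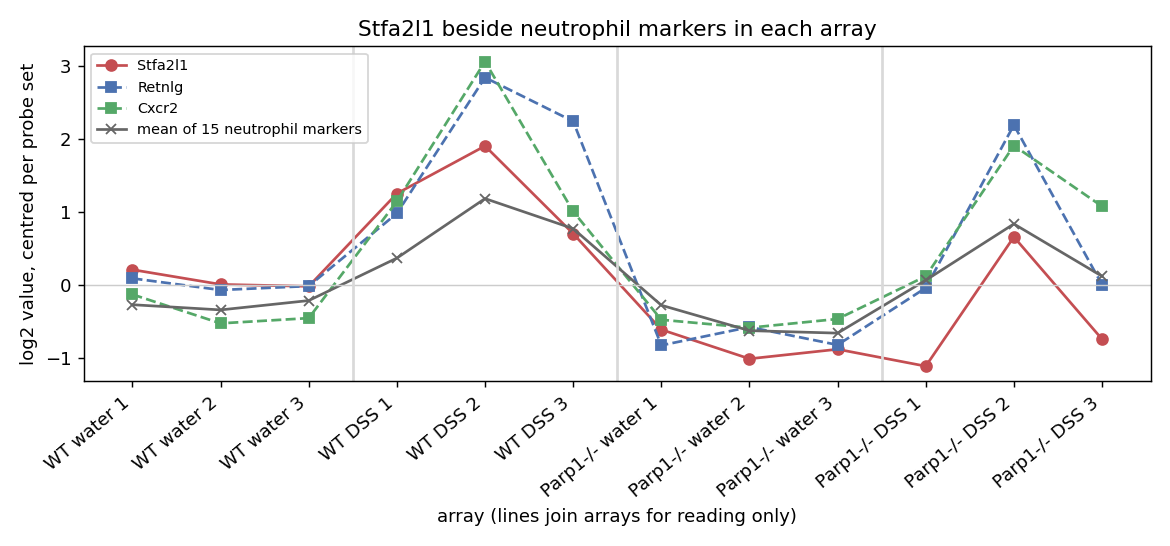
Log2 values centred per probe set (y axis) of Stfa2l1, Retnlg and Cxcr2 and the mean of 15 neutrophil markers in each of the 12 arrays (x axis, grouped by genotype and treatment). All 4 series peak in wild-type DSS 2, and within Parp1-/- DSS in array 2, where Stfa2l1 is at 0.66 and Retnlg at 2.20.

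Stfa1, a stefin A inhibitor of the same fold, separated the genotypes in water. So did the other Stfa genes: all 4 lay lower in Parp1-/- without overlap, where 29.2% of all genes did. It was at 0.30, 0.60 and 0.29 on plain water and 0.67, 0.76 and -0.51 on DSS in the wild type. The Parp1-/- arrays stood at -0.47, -0.72 and -0.74 on plain water and -0.50, 0.13 and -0.13 on DSS. The wild-type water arrays all lay above the Parp1-/- water arrays, and wild-type DSS 3 lay among the Parp1-/- arrays. The mean was 0.40 ± 0.17 (SD, n = 3) in wild-type water and -0.64 ± 0.15 in Parp1-/- water, a difference of -1.04 ± 0.30. Between them lay wild-type DSS at 0.31 ± 0.71 and Parp1-/- DSS at -0.17 ± 0.32, each overlapping with its neighbours in that order. DSS minus water was -0.09 ± 0.30 in wild type and 0.48 ± 0.30 in Parp1-/-. The call of the difference in water ended without any 1 of 4 arrays: the array labelled wild-type water 1 (-1.09), wild-type water 2 (-0.94), Parp1-/- water 2 (-1.0) and Parp1-/- water 3 (-0.99). It was also lost with the median of 1043 smell receptor genes (olfactory and vomeronasal) of each array as a covariate, where the difference was -0.03 ± 0.44. In water that receptor median separated the genotypes without overlap. The mean of 13 squamous epithelium markers did so too, at 0.35 to 0.51 in wild type and -0.21 to 0.08 in Parp1-/-, with 6 of 13 lower by limma where 13.7% of all genes were, and 3 without the array labelled wild-type water 1. The part of either in the Stfa1 difference was not tested.

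Stfa3 was at 1.13, 0.17 and 0.06 on plain water and 0.33, 0.09 and 0.06 on DSS in the wild type. Without Parp1 it was at -0.14, -0.12 and -0.16 on plain water and -0.08, -0.12 and -0.06 on DSS. No Parp1-/- array reached the lowest of the 6 wild-type arrays, and the array labelled wild-type water 1 was far above the next at 0.33. Parp1-/- minus wild type in water was -0.59 ± 0.24 with that array and -0.26 ± 0.14 without it. Stfa2 had the narrowest range of the measured cluster genes, 0.59 from its lowest to its highest array. It was at 0.32, 0.02 and 0.06 on plain water and 0.46, 0.32 and -0.04 on DSS in the wild type. Mice lacking Parp1 had -0.09, -0.12 and -0.12 on plain water and 0.12, -0.02 and -0.07 on DSS. Its DSS difference was 0.12 ± 0.16 in each genotype, with overlap in wild type and a gap between -0.09 and -0.07 in Parp1-/-. With the housekeeping mean set to 0 the wild-type difference turned to -0.97 ± 0.39. Stfa2l1, whose upstream window is nearly the same, ranged over 3.02. Array probe sequences were not used here, so whether these close paralogs share signal was not tested.

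**Figure D2:**
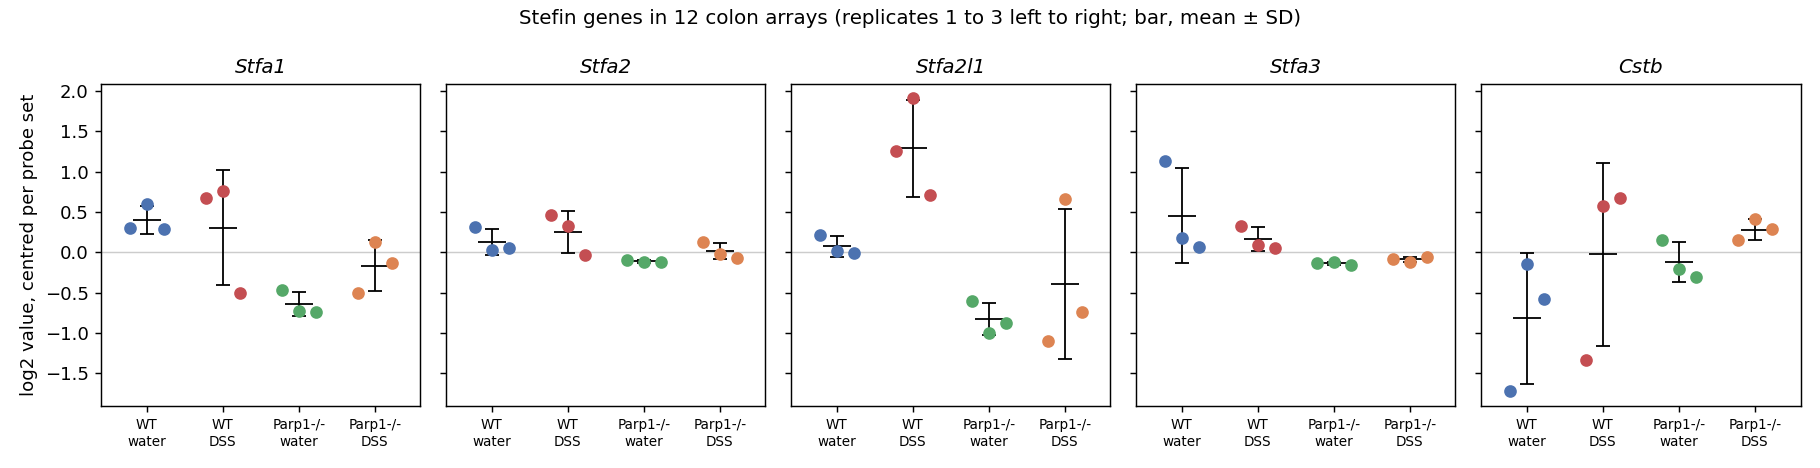
Log2 values centred per probe set (y axis) of the 5 stefins in the 12 arrays, with 3 mice per group from left to right and a bar for mean ± SD. Stfa2l1 lies at 0.71 to 1.91 in wild-type DSS and no other array exceeds 0.66, while Stfa2 spans 0.59 in all.

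Cstb (cystatin B, or stefin B), which is made by most cell types and lies outside the cluster, followed another course. It was at -1.72, -0.15 and -0.58 on plain water and -1.34, 0.58 and 0.68 on DSS in the wild type. Parp1-/- mice had 0.15, -0.20 and -0.31 on plain water and 0.15, 0.41 and 0.28 on DSS. It was lowest in wild-type DSS 1 and the array labelled wild-type water 1, where the housekeeping means were -0.87 and -1.71. The groups overlapped in every comparison. DSS minus water was 0.79 ± 0.50 in wild type and 0.40 ± 0.50 in Parp1-/-, and Parp1-/- minus wild type in water was 0.70 ± 0.50. The last of these turned to -0.68 ± 0.33 with the housekeeping mean set to 0. Without wild-type DSS 1 the wild-type difference was 1.44 ± 0.36 and called.

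Along the cluster, RefSeq orders 12 genes as Csta1, Stfa2l1, Cstdc4, Csta3, Csta2, Stfa1, Cstdc3, Cstdc6, Cstdc5, Gm7260, Stfa2 and Stfa3, of which all but Gm7260 were measured. Stfa2l1 had the widest range over arrays, followed by Csta2 (2.10) and Stfa1 (1.5). Csta3 and Cstdc3, members of the cluster with a cystatin domain, fell under DSS in wild type by limma, by 0.70 ± 0.15 (adjusted p = 0.0124) and 0.57 ± 0.14 (adjusted p = 0.0226). Csta3 was at 0.45, 0.77 and 0.92 in wild-type water and between -0.15 and 0.08 in the other 9 arrays. These 2 were the calls among 9 measured genes of a list of cluster genes and relatives, of which Cstdc1 and Cstdc2 lie on chromosome 2. Of all genes 8.89% rose and 4.16% fell in that comparison. In Parp1-/- no gene of the list passed the test, where 0.00938% of all genes did. The smallest p there was that of Csta1, which differed by 0.68 ± 0.28 (limma adjusted p = 1.0). With the housekeeping mean set to 0, 8 of the 9 fell in wild type, where 69.2% of all genes did. Both falls above compare with water arrays in which smell receptor genes were also high, at a median of 0.38 to 0.41 against -0.12 to 0.05 in the 8 arrays, and neither passed after quantile normalization. The part of that shift was not tested.

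**Figure D3:**
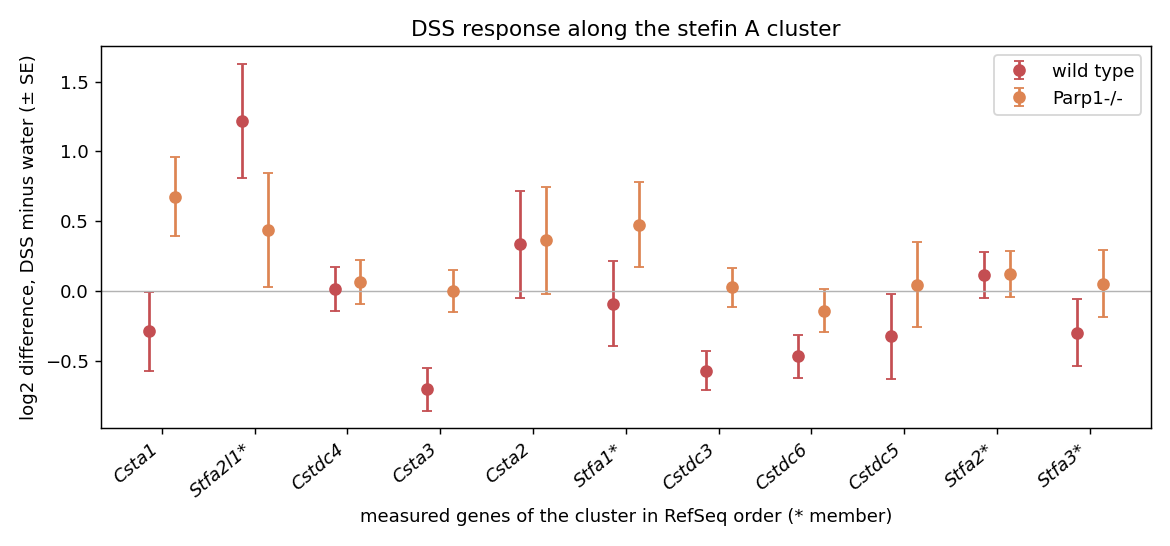
Log2 difference of DSS minus water (y axis, model standard error as bars) for 11 measured genes of the cluster in RefSeq order (x axis, asterisks on the 4 Stfa genes), in wild type and Parp1-/-. Stfa2l1 stands highest in wild type at 1.22 and Csta3 lowest at -0.70, while with the housekeeping mean of every array set to 0 Stfa2l1 is at 0.13.

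Ctsb (cathepsin B, a cysteine endopeptidase of the lysosome) was lower in the 3 wild-type water arrays than in any other. It was at -1.55, -2.51 and -2.52 on plain water and -0.34, 0.52 and 0.40 on DSS in the wild type. In Parp1-/- its values were -0.23, -0.01 and 0.01 on plain water and 0.36, 0.57 and 0.23 on DSS. The groups did not overlap between water and DSS in either genotype, but the wild-type step was 2.39 ± 0.29, or 5.25-fold, and the Parp1-/- step 0.47 ± 0.29. In order of their means, Parp1-/- DSS (0.39 ± 0.17, SD, n = 3), wild-type DSS (0.20 ± 0.46) and Parp1-/- water (-0.08 ± 0.14) overlapped with a neighbour, and wild-type water (-2.20 ± 0.56) stood alone. Relative to each array's housekeeping mean it was at 0.16, -1.62 and -1.40 in wild-type water and between -0.33 and 0.54 in the other 9 arrays, so the array labelled wild-type water 1 then lay among them. The wild-type difference without that array was 2.71 ± 0.24.

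Ctsl (cathepsin L, a strong endopeptidase that stefins inhibit) was also lowest in wild-type water, with less spread. It was at -2.12, -2.25 and -2.10 on plain water and -0.86, -0.64 and 0.09 on DSS in the wild type. The Parp1-/- arrays stood at 0.08, 0.04 and -0.04 on plain water and 0.37, 0.23 and 0.36 on DSS. All 3 Parp1-/- DSS arrays lay above the 3 of wild-type DSS and above the 3 of Parp1-/- water. In order of means, Parp1-/- DSS (0.32 ± 0.08, SD, n = 3) stood above Parp1-/- water (0.03 ± 0.06), which overlapped with wild-type DSS (-0.47 ± 0.50), and wild-type water (-2.15 ± 0.08) stood alone. DSS minus water was 1.69 ± 0.21 in wild type and 0.29 ± 0.21 in Parp1-/-, and Parp1-/- minus wild type was 2.18 ± 0.21 in water and 0.79 ± 0.21 in DSS. Among the 8 arrays that did not stand apart, the difference under DSS was 0.59 ± 0.20. The wild-type DSS difference was 0.68 ± 0.24 after quantile normalization and 0.60 ± 0.31 with the housekeeping mean set to 0, and in neither was it called. The genotype difference in water ranged from 0.80 to 2.29 over the 22 other settings.

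Ctsd (cathepsin D, the aspartic protease of the lysosome) had the largest genotype difference of the 10 genes in water. It was at -3.01, -1.55 and -2.36 on plain water and -1.80, -0.65 and 0.24 on DSS in the wild type. Without Parp1 it was at 0.36, 0.93 and 0.86 on plain water and 0.72, 0.34 and -0.24 on DSS. Every Parp1-/- water array lay above every wild-type array, and wild-type DSS 1 lay within the wild-type water range. Means ran from 0.71 ± 0.31 (SD, n = 3) in Parp1-/- water over 0.27 ± 0.49 in Parp1-/- DSS and -0.74 ± 1.02 in wild-type DSS to -2.31 ± 0.73 in wild-type water, with overlap between neighbours. Parp1-/- minus wild type in water was 3.02 ± 0.49, or 8.11-fold, and 2.67 ± 0.52 without the array labelled wild-type water 1. It was 0.93 ± 0.55 and not called with the smell receptor median as a covariate. In a fit of the 9 arrays without the 3 that were high in smooth muscle markers, Ctsd differed by 2.67 ± 0.76 and Ctsb by 1.96 ± 0.48, neither called, and Ctsl by 2.23 ± 0.37, called. That fit has 1 Parp1-/- water array, assumed to vary like the other groups. DSS minus water was 1.57 ± 0.49 in wild type and -0.44 ± 0.49 in Parp1-/-, the latter within the spread of the arrays. The window before the RefSeq start of Ctsd is shown because it holds CACGTG, the core of the element that the lysosomal regulator TFEB is known to bind, in capitals.
Ctsd, chr7:142387828-142388077, minus strand: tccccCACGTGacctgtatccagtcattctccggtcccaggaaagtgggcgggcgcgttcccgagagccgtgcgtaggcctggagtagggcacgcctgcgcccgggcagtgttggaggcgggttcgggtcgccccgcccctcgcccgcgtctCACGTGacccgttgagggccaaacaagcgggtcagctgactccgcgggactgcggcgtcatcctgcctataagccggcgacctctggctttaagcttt
The letters lay 245 and 98 bases before the start. CACGTG, which reads the same on both strands, was in the windows of Ctsd and Ctsl of 4 cathepsins with a window, in none of the 4 stefin windows and in 6.0% of all windows.

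Ctss and Ctsz had means the other way in wild type, lower in DSS than in water. Ctss, cathepsin S, which trims the invariant chain in cells that present antigen, was at -0.23, 0.92 and 0.74 on plain water and -1.26, -0.46 and 0.43 on DSS in the wild type. Mice lacking Parp1 had -0.01, -0.60 and -0.72 on plain water and 0.44, 0.01 and 0.25 on DSS. Ctsz, a carboxypeptidase of myeloid cells among others, was at 0.02, 0.98 and 0.40 on plain water and -1.42, -0.45 and 0.19 on DSS in the wild type. Parp1-/- mice had -0.30, 0.06 and -0.21 on plain water and 0.63, -0.36 and -0.02 on DSS. For both, wild-type DSS 1 was the lowest of the 12 arrays and wild-type water 2 the highest. Mean Ctss was 0.48 ± 0.62 (SD, n = 3) in wild-type water, 0.23 ± 0.22 in Parp1-/- DSS, -0.43 ± 0.85 for wild-type DSS and -0.44 ± 0.38 for Parp1-/- water, and all neighbours in that order overlapped. Mean Ctsz was 0.46 ± 0.48 in wild-type water, 0.09 ± 0.50 in Parp1-/- DSS, -0.15 ± 0.19 in Parp1-/- water and -0.56 ± 0.81 in wild-type DSS, with the same overlap of neighbours. Wild-type groups overlapped, with DSS minus water at -0.91 ± 0.41 for Ctss and -1.03 ± 0.39 for Ctsz. In Parp1-/- the differences were 0.67 ± 0.41 for Ctss, whose groups did not overlap, and 0.23 ± 0.39 for Ctsz. Relative to the housekeeping mean of each array, the overlap in wild type was gone: Ctss was at 1.48, 1.82 and 1.87 and Ctsz at 1.73, 1.87 and 1.53 in wild-type water, above the other 9 arrays, in which the highest values were 0.29 and 0.49. On that scale DSS minus water in wild type was -1.99 ± 0.30 for Ctss and -2.11 ± 0.30 for Ctsz, both called. There 69.2% of all genes were called lower, and the median of all genes was -1.14, so these 2 calls hold the shift of the arrays. Without wild-type DSS 3 they were called on the deposited scale too, at -1.34 ± 0.37 and -1.40 ± 0.37. Ctss was lower in Parp1-/- than in wild-type water by 0.92 ± 0.41, which was called, at -1.27 ± 0.41, without the array labelled wild-type water 1.

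**Figure D4:**
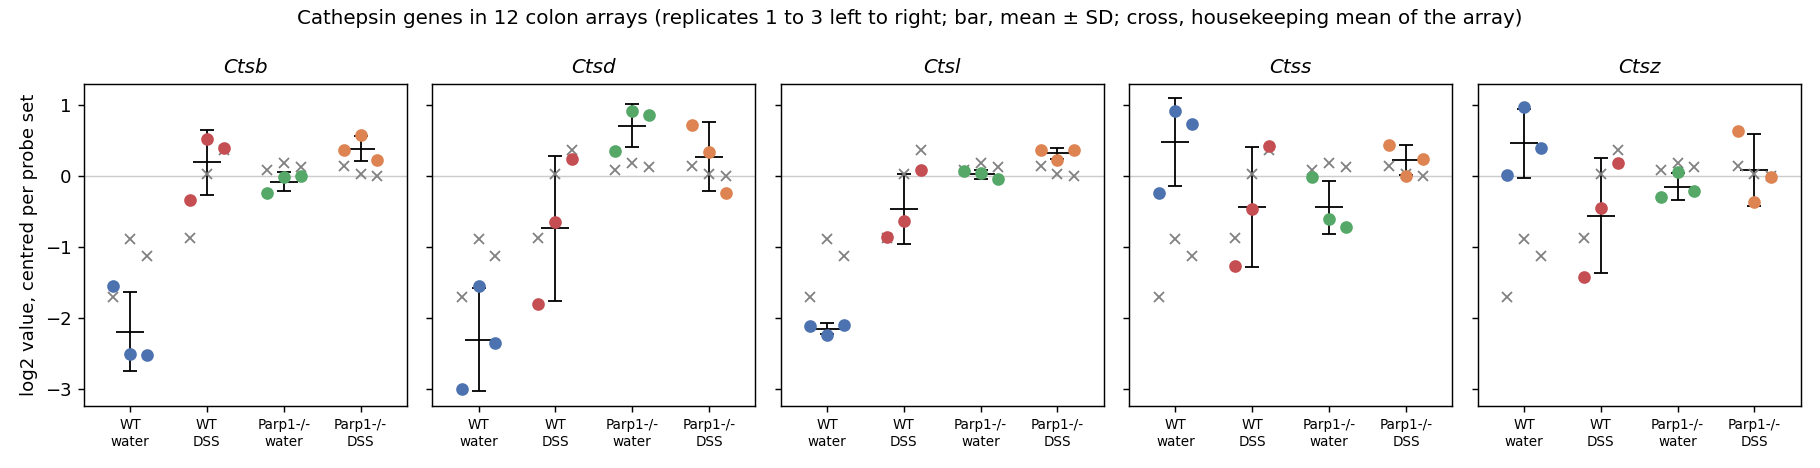
Log2 values centred per probe set (y axis) of the 5 cathepsins in the 12 arrays, with 3 mice per group from left to right, bars for mean ± SD and crosses for the housekeeping mean of each array. Ctsb, Ctsd and Ctsl lie at -3.01 to -1.55 in wild-type water, while Ctss and Ctsz lie above the crosses in those 3 arrays.

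Counted over the 10 genes, the calls fell as follows. Under DSS in wild type 2 of 10 were called, Ctsb and Ctsl, where 13.0% of all genes were called, and 3 of 10 did not overlap, all of them higher, against 23.6% of all genes and 11.4% in that direction. Under DSS in Parp1-/- 0 of 10 were called, where 0.00938% of all genes were, and 5 of 10 lay higher without overlap, against 7.82% of all genes: Stfa2, Stfa3, Ctsb, Ctsl and Ctss. Some of these gaps were far below the spread, from -0.1169 to -0.1163 for Stfa3 and from -0.0085 to 0.0085 for Ctss. Limma gave 609 genes with an unadjusted p under 0.05 there. In water, Parp1-/- against wild type, 4 of 10 were called, Ctsb, Ctsd and Ctsl higher and Stfa1 lower, where 31.6% of all genes were called, 17.9% higher and 13.7% lower. There 7 of 10 did not overlap, 3 higher and 4 lower, against 55.4% of all genes, 26.2% higher and 29.2% lower. In DSS 0 of 10 were called and 0.0% of all genes, with 593 at an unadjusted p under 0.05 in limma, and Stfa2l1 and Stfa3 lay lower and Ctsl higher without overlap, against 6.55% of all genes, 4.52% lower and 2.04% higher. Without wild-type DSS 1 the wild-type count under DSS was 4, with Ctsd and Cstb added. Since the rule used these contrasts, nothing is read from the counts. The 2 DSS comparisons each share a control group with the comparison of genotypes in water.

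The medians of the groups of members ran apart. Under DSS in wild type the median difference was 0.12 over the 5 stefins and 1.57 over the 5 cathepsins, beside -0.05 over all genes, and with the housekeeping mean set to 0 the stefin median turned to -0.97 while that of the cathepsins was 0.48. In Parp1-/- it was 0.40 and 0.29, beside 0.01. In water, Parp1-/- minus wild type, it was -0.59 and 2.12, beside -0.07, and in DSS -0.24 and 0.66, beside 0.00. Over the 15 housekeeping genes the median was 1.15 under DSS in wild type and 1.46 for genotype in water. Over the 12 colonocyte markers it was 1.48 and 1.61. Against the cathepsin median, Ctss and Ctsz were at -0.91 and -1.03 under DSS in wild type, and at -0.92 and -0.61 for genotype in water. Setting the housekeeping mean to 0 moved the median of all genes to -1.14 for DSS in wild type and to -1.45 for genotype in water. Relative to the median of all genes, Ctsb and Ctsl differed by 2.44 and 1.74 in wild type, and Ctsd, Ctsl, Ctsb and Stfa1 by 3.09, 2.25, 2.19 and -0.97 in water. These values are the same on both scales by construction, since the rescaling takes a single constant from every gene of an array. They are therefore no check of the shift.

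The difference of the DSS responses, Parp1-/- minus wild type, was -1.92 ± 0.41 for Ctsb and -1.39 ± 0.30 for Ctsl, the 2 of 10 called, both lower, where 2.54% of all genes were called and 2.33% lower. For Ctsd it was -2.01 ± 0.69, for Stfa2l1 -0.78 ± 0.58, for Ctss 1.58 ± 0.58 and for Ctsz 1.26 ± 0.55. The wild-type water arrays enter each of these. These are the values the genes were chosen with, and they stand as a description. With the housekeeping mean set to 0 other genes were called, Ctss (2.74 ± 0.43), Ctsz (2.42 ± 0.42) and Stfa1 (1.73 ± 0.64), all higher, where 33.2% of all genes were higher, and Ctsb and Ctsl were not. With the receptor covariate Ctss (2.53 ± 0.56) and Ctsz (2.40 ± 0.40) were called higher in place of them. The calls of Ctsb and Ctsl were each kept under 5 of 21 other settings, and neither was called without any 1 of wild-type water 2 or 3, wild-type DSS 2, or any Parp1-/- array. Without the array labelled wild-type water 1 Ctsb was called (-2.25 ± 0.33) and Ctsl was not (-1.41 ± 0.33).

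Other cathepsins and legumain, a list that also holds Ctse from outside the lysosome, were mixed. Which of them are expressed in colon was not tested. Of 18 measured genes of a list of other cathepsins and legumain, 4 rose and 1 fell under DSS in wild type by limma, where 8.89% of all genes rose and 4.16% fell. With the housekeeping mean set to 0 there were 1 and 12. The 12 of 18 lie near the 69.2% of all genes that fell on that scale. Those that rose included Lgmn, the asparaginyl protease that activates cathepsins (2.41 ± 0.50, adjusted p = 0.0102), Ctsc, which activates granule proteases of neutrophils (1.83 ± 0.46, adjusted p = 0.024), and Ctso (1.48 ± 0.28, adjusted p = 0.00569). In Parp1-/- none of the 18 passed by limma, where 0.00938% of all genes did. In water, 3 of 18 were higher and 5 lower in Parp1-/- than in wild type, where 17.9% of all genes were higher and 13.7% lower. Ctsc differed there by 2.26 ± 0.46 (limma adjusted p = 0.0055) and Ctso by 1.59 ± 0.28 (adjusted p = 0.00257). The median of the list was -0.12 under DSS in wild type and -0.27 in water. Without the array labelled wild-type water 1, 2 rose and 2 fell under DSS in wild type, where 6.25% of all genes rose and 4.11% fell. After quantile normalization no gene of the list passed under DSS, where 1.02% of all genes rose and 0.0657% fell in wild type. In water 1 was then higher and 1 lower, where 8.32% of all genes were higher and 2.09% lower.

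Of 31 measured lysosome genes that are no cathepsins, 10 rose and 0 fell under DSS in wild type by limma, with a median of 0.69. Over all genes 8.89% rose and 4.16% fell, and of the 15 housekeeping genes 8 rose and 0 fell, with a median of 1.15. With the housekeeping mean set to 0 there were 1 and 12 of the 31, with a median of -0.40. On that scale 2.31% of all genes rose and 69.2% fell, with a median of -1.14. In water 16 of the 31 were higher and 0 lower in Parp1-/- than in wild type, with a median of 0.98. Over all genes 17.9% were higher and 13.7% lower in that comparison, and of the 15 housekeeping genes 11 were higher and 0 lower, with a median of 1.46. With the housekeeping mean set to 0 there were 4 and 7 of the 31, with a median of -0.40. Of all genes 2.74% were then higher and 73.7% lower, with a median of -1.45. Psap, whose product is cut into the saposins that help to degrade sphingolipids, was at -2.96, -2.08 and -2.60 on plain water and -1.05, -0.04 and 0.34 on DSS in the wild type. In Parp1-/- its values were 0.04, 0.49 and 0.35 on plain water and 0.56, 0.28 and -0.13 on DSS. Wild-type water lay below all other arrays. Psap rose by 2.29 ± 0.34 under DSS in wild type (limma adjusted p = 0.00173) and passed in all 20 other settings there. Tpp1, a tripeptide-cutting protease, rose by 1.64 ± 0.43 (adjusted p = 0.0289) and Asah1, the acid ceramidase, by 1.53 ± 0.37 (adjusted p = 0.0206), both by limma, with the call kept in 10 and 11 of 20. Without the array labelled wild-type water 1 there were 6 rises and 1 fall under DSS, and 12 and 0 in water. In the fit of 9 arrays 0 of 31 passed in water. In Parp1-/- under DSS 0 of 31 passed by limma and the median was 0.01.

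Cst3 (cystatin C, the secreted inhibitor of cysteine cathepsins) rose under DSS in wild type by 1.69 ± 0.29 (limma adjusted p = 0.00354). It was at -1.22, -0.69 and -0.81 on plain water and 0.84, 1.15 and 0.36 on DSS in the wild type. The Parp1-/- arrays stood at -0.43, 0.57 and 0.56 on plain water and -0.02, 0.13 and -0.14 on DSS. Its DSS responses differed between genotypes by -1.93 ± 0.41 (limma adjusted p = 0.0321), a call kept in 7 of 20 other settings. The call of its rise was kept in 18 of 20, and lost after quantile normalization and with the housekeeping mean set to 0 (0.61). Of 14 cystatins measured outside the cluster, Cst12 and Cst13, of the reproductive tract, fell by 0.50 ± 0.13 (limma adjusted p = 0.0322) and 0.50 ± 0.14 (adjusted p = 0.0422), calls kept in 7 and 5 of 20 other settings. Under DSS in wild type 8.89% of all genes rose and 4.16% fell. None of the 14 passed in Parp1-/-, where 0.00938% of all genes did. In water 1 of 14, Cst3, was higher in Parp1-/- (1.14 ± 0.29, limma adjusted p = 0.015) and 5 were lower, where 17.9% of all genes were higher and 13.7% lower. That difference in Cst3 turned to -0.24 with the housekeeping mean set to 0, and was not called without the array labelled wild-type water 1.

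Macrophages hold much cathepsin, and their markers were set beside the cathepsins. Of 15 measured, 5 rose and 0 fell under DSS in wild type by limma, where 8.89% of all genes rose and 4.16% fell. With the housekeeping mean set to 0 there were 1 and 4, where 2.31% of all genes rose and 69.2% fell. Among the 5 were Cd14, a receptor for bacterial lipopolysaccharide (2.12 ± 0.50, limma adjusted p = 0.018), and Cd68, a protein of macrophage lysosomes (1.54 ± 0.26, limma adjusted p = 0.00346). In Parp1-/- none passed, where 0.00938% of all genes did, with Cd14 at 2.07 ± 0.50 (limma adjusted p = 0.522) and Cd68 at 0.80 ± 0.26 (adjusted p = 1.0). The mean of the 15 was -0.53 to -0.17 in wild-type water, -0.05 to 0.59 in wild-type DSS, -0.28 to 0.35 in Parp1-/- water and 0.03 to 0.28 in Parp1-/- DSS. With the array labelled wild-type water 1 left out, there was 1 rise, where 6.25% of all genes rose. The part of macrophage number in the cathepsin values was not tested.

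The genes most like the members over the 12 arrays were ranked by Pearson correlation, as a description. With the mean of the 4 Stfa genes these were Olfr988 (r = 0.95), a smell receptor gene, Med7 (0.93), Clec5a (0.93), a myeloid surface receptor, Il18rap (0.93), a subunit of the interleukin 18 receptor, and Cstdc4 (0.92), a neighbour in the cluster. With the mean of the 5 cathepsins they were Dip2b, Golm1, Pkm, Atxn3 and Edem2, all at r = 0.99. The 12 arrays share the split into 4 and 8, which is part of each of these correlations.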

How the data were processed

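RNA from 12 mouse colons was hybridised to Affymetrix arrays, and the values used are the table the authors deposited, which holds log2 values, centred so that each of 31693 probe sets has a median of 0 over the 12 arrays. The base 2 and the direction are taken from the usual form of such tables. The sources used here do not name the software, background correction or normalization behind them, and signal over background is unknown, so precision is judged from the 3 mice a group alone. Probe sequences were not used. Deposited values ran from -4.83 to 5.47.

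Probe sets were named through the platform annotation: 22586 had 1 gene symbol, 1756 several and 7351 none, and those with 1 symbol were averaged to 21314 genes. A symbol's entry was found in RefSeq for 22406 probe sets. limma 3.58.1 in R 4.3.3 fitted the 4 groups in 1 model with empirical Bayes moderation, with the Benjamini-Hochberg adjustment taken over every gene tested and calls at an adjusted p under 0.05. The code was tested on simulated data. Mice were grouped by genotype and treatment per the labels. Numbers 1 to 3 within a group follow deposit order and pair nothing. No 2 arrays held identical values. Promoter windows came from the RefSeq table (GRCm38.p6, 250 bases before the start, found for 8 of the 10 symbols), and were aligned with Biopython 1.88.

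The 10 genes and all gene lists were chosen with earlier results of these data known, so differences among the 10 carry no p. The limma adjusted p values printed for list genes come from the fit over all genes. Because of how the lists were chosen, they too are a description. Of each list and comparison, the genes named are among the up to 3 called with the largest difference, or the 2 of smallest p where none was called. The alternatives were quantile normalization, array medians or the mean of 15 housekeeping genes set to 0, array weights, trended and robust moderation, smell receptor median as a covariate, the compared arrays alone, 8 arrays without the 4 that stood apart, a stricter threshold and each array left out. A fit of 9 arrays without the 3 high in smooth muscle markers was added after seeing the data.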

Additional observations from a re-analysis of the deposited data

Results flagged for a closer look

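Ctsb and Ctsl are listed because the interaction term of the model, DSS minus water in Parp1-/- less DSS minus water in wild type, passed its threshold. Both genes were chosen with these contrasts known, so the values describe these arrays and carry no test. The term was -1.92 for Ctsb, whose 3 wild-type water arrays lay at -2.52 to -1.55 and whose 9 other arrays lay at -0.34 to 0.57. It was -1.39 for Ctsl, with wild-type water at -2.25 to -2.10 and the other 9 arrays at -0.86 to 0.37. The wild-type water arrays are also those with the lowest housekeeping means. With that mean set to 0 the terms were -0.76 and -0.23, and neither was called.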

How the results depend on the processing

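Counted over the 10 genes, calls under DSS in wild type went from 2 to 1 after quantile normalization, 6 with the housekeeping mean set to 0 (1 higher, 5 lower), 7 with array weights and 4 with the receptor covariate, and lay between 2 and 4 when each array was left out. Under DSS in Parp1-/- they went from 0 to 1 with array weights and stayed at 0 to 0 over arrays left out. In water they went from 4 to 8 with the housekeeping mean (2 higher, 6 lower), 2 with the covariate and 1 in the fit of 9 arrays chosen after seeing the data, with 3 to 5 over arrays left out. For genotype in DSS they went from 0 to 7 with array weights, and 0 to 0 over arrays left out. For the difference of responses they went from 2 to 0 after quantile normalization, 0 with trended and robust moderation, 5 with array weights, 0 at an adjusted p under 0.01 and 0 in the fit of 9 arrays, with 0 to 3 over arrays left out, and the 2 lower were replaced by 3 higher with the housekeeping mean and 2 higher with the covariate. No called difference of the 10 genes turned its sign in these settings. Over all genes, limma calls under DSS in wild type fell from 2781 to 232 after quantile normalization and to 1211 without wild-type DSS 2, and rose to 6865 without wild-type DSS 1 and 15244 with the housekeeping mean set to 0, of which 14751 were lower. In water they fell from 6725 to 2219 after quantile normalization, 436 with the covariate and 147 in the fit of 9 arrays, and rose to 16285 with the housekeeping mean, of which 15702 were lower. With array weights, whose iteration stopped before convergence, they were 8772, 1457, 10771, 6184 and 7675 in the 5 comparisons in the order above. The difference of responses had 542 calls, 496 of them lower, 0 after quantile normalization and 7178 with the housekeeping mean, 7081 of them higher. The cause of these shifts was not tested. No paired analysis was possible because the labels name single mice and share no replicate numbers between groups. Signal over background is unknown, so low values cannot be told from background.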

Other observations

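Ctse, cathepsin E, an aspartic protease outside the lysosome, stood out by single arrays, and was chosen after its values were seen. It was at 1.97 in Parp1-/- water 1 and at 3.20 in Parp1-/- DSS 3, and between -0.72 and 0.88 in the other 10 arrays. In the stefin A cluster, Csta2 was at 1.64 and Cstdc5 at 1.02 in wild-type DSS 1. The next highest array of each was the array labelled wild-type water 1, at 0.46 for Csta2 and 0.73 for Cstdc5. The smooth muscle markers were not high in the 2 arrays with high Ctse.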
